A study of Mus musculus with 3 samples.

Results

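Hexim1 and 8 other genes that control the elongation factor P-TEFb were followed through spleen cells kept with urine or with PBS. They are the inhibitors Hexim1 and Hexim2, their partner Larp7, the P-TEFb subunits Cdk9, Ccnt1 and Ccnt2, the chromatin reader Brd2, and the elongation complex genes Ell2 and Aff4. They were chosen by name, after Hexim1 had been seen to be about 100-fold higher with urine in these arrays, so its difference from PBS is a description here and no finding. The 9 genes were among 36609 gene names or loci on the array and were read by 21 probes, each shown apart.

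The cells on all 3 arrays were from spleens of males of the MRL/MpJ strain at 6 months of age, with an intact Fas gene, cultured after lysis of red cells. Contact lasted 3 h and was with PBS as the control, urine from the same strain, or urine from MRL/MpJ-Faslpr/lpr donors, called lpr urine here, whose Fas gene carries the lpr mutation. Donors were also males of 6 months, and urine of 6 donors a strain was pooled, so each urine is 1 pool. The labels do not settle how many spleens the cells came from. There was 1 single-colour array per condition and thus no replicate check: each difference compares these arrays, and no p-value or standard error can be given.

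P-TEFb is the kinase CDK9 bound to cyclin T1 or T2. It phosphorylates RNA polymerase II and the factors that hold it paused near the start of genes, which lets the polymerase move into the gene. In resting cells a large share of P-TEFb is kept inactive in a particle built on the small nuclear RNA 7SK, where HEXIM1 or HEXIM2 blocks the kinase, LARP7 protects the RNA and MEPCE caps it. BET proteins such as BRD2 read acetylated chromatin, and AFF4 and ELL2 belong to the super elongation complex, which carries active P-TEFb. In the spleen ELL2 is best known from plasma cells, where it favours secreted immunoglobulin mRNA.

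The probes that the results turn on are shown by sequence, since one of them holds a repeat that unrelated probes on the array also hold. For protein-coding genes the first 30 of 60 bases are given, 5′ to 3′ in the sense of the transcript, from the deposited files with positions on mouse build mm9. Capitals mark CA repeats in Hexim2 probe 2 and, in Brd2 probe 2, an arm of 11 bases whose reverse complement lies further along the same probe. The Rn7sk probe, for the 7SK RNA, is shown whole.
Hexim1 (chr11:102980827-102980856, forward strand): ttcctgccagctaaatggtaacagtggagt
Hexim2 probe 1 (chr11:103000446-103000475, forward strand): gttggatctttaatgtcatctaacttttta
Hexim2 probe 2 (chr11:103001094-103001123, forward strand): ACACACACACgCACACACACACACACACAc
Brd2 probe 1 (chr17:34249012-34249041, reverse strand): ccagttggccccaagactgtcttttctttc
Brd2 probe 2 (chr17:34255997-34256026, reverse strand): tttcaaaGATGGAGGCGGcggctctctgaa
Brd2 probe 3 (chr17:34256554-34256583, reverse strand): agccacggcgcagccaattggctcggagac
Rn7sk (chr9:78023109-78023168, reverse strand): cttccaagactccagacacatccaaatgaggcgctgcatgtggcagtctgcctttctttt
Probes of a gene are numbered by chromosome position. Whether a probe lies in an exon, an intron or a UTR was not determined, since no annotation of mm9 was used.

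Values are processed signals in intensity units, the scanner brightness after background subtraction. The level is log2 of that signal minus the array's 75th percentile, and a log2 difference is the difference of 2 levels of 1 probe. Higher or lower means well above background on both arrays, by the software's own call, and at least 2-fold apart. The 75th percentile was 157.5 units with PBS, 86.6 in MRL/MpJ urine and 75.7 in lpr urine, while 8 E1A spike-ins, RNAs added in fixed amounts, differed by 0.04 and -0.06 from PBS in median log2 signal before scaling. Scaling by spike-ins instead therefore lowers every difference from PBS by 0.90 (MRL/MpJ urine) or 1.00 (lpr urine), and scaling by the median lowers it by 0.37 or 0.39. Scaling by the 75th percentile over measured probes raises it by 0.12 or 0.13. Directions of positive differences smaller than the lowering, and of negative ones smaller than the raising, hold only under the scaling named. In bulk RNA, fewer cells of a type and less RNA per cell cannot be told apart. Repeated spots of 1 probe give a log2 difference an SD of 0.052 at log2 signals above 8, 0.122 at 5 to 8 and 0.251 below 5, which leaves out all noise between wells and arrays.

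The labelled tissue was checked by markers. All 5 markers each of B cells, T cells, monocytes and macrophages, and erythroid cells were well above background on all 3 arrays. Of 5 markers of urinary tract epithelium and liver only Upk1a was, at 26 units with PBS and 9.52 and 8.77 with the urines, while Upk1b, Upk2, Upk3a and Alb were not above background on any array. The summed marker signal, in multiples of the 75th percentile, was 197.0 with PBS, 314.7 in MRL/MpJ urine and 299.0 in lpr urine for B cells, and 55.6, 93.5 and 82.5 for monocytes and macrophages. For T cells it was 238.3, 221.7 and 234.2, and for erythroid cells 159.3, 193.1 and 209.7. Under spike-in scaling the sums were below PBS for each of these lists, at 0.853 and 0.761 of PBS for B cells, 0.899 and 0.744 for monocytes and macrophages, 0.497 and 0.493 for T cells and 0.647 and 0.66 for erythroid cells. Whether these shifts have a part in the differences below was not tested.

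Hexim1, the inhibitor named after its induction by hexamethylene bisacetamide, had the largest difference from PBS of all members. It read 155 intensity units with PBS, 9721 in MRL/MpJ urine and 7088 in lpr urine. Both urine arrays were high and close to each other. The differences from PBS were 6.83 (114-fold) and 6.57 (95-fold), the 12th highest of 30286 probes measured on both arrays and the 18th highest of 29741. Under spike-in scaling they were 5.93 (60.8-fold) and 5.57 (47.6-fold), so the size of the fold depends on the scale and its direction does not. With normexp background correction the difference with MRL/MpJ urine was 6.18. Unlike many of the largest differences on these arrays, it did not start from a signal near background, since the lowest signal called well above background with PBS was 4.47. The gene has 1 probe, so no second probe can be set beside it.

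**Figure D1:**
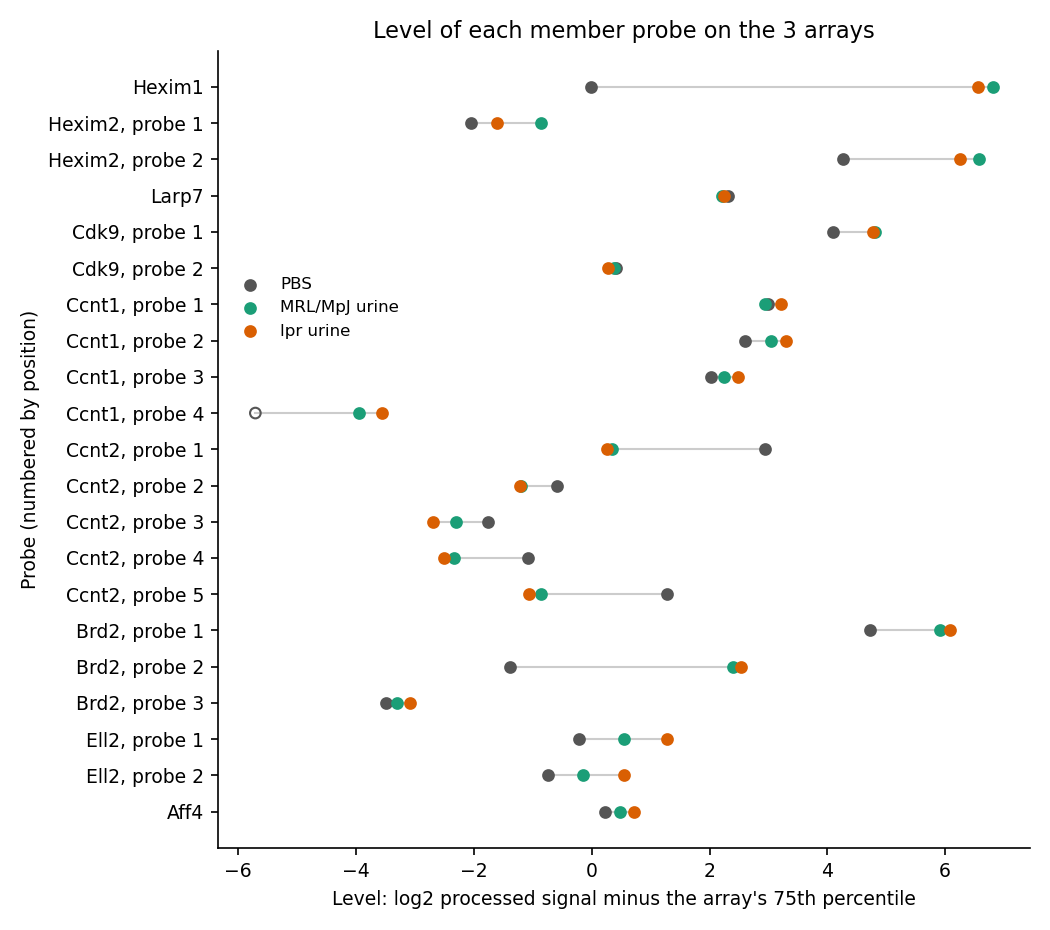
Level (x axis, log2 scale, signal relative to the 75th percentile of its array) of each of the 21 probes (y axis) for PBS, MRL/MpJ urine and lpr urine, 1 array each; the open circle is not well above background. Hexim1 goes from -0.02 with PBS to 6.81 and 6.55 with the urines. Ccnt2 lies lower with urine on each of its 5 probes (probe 3 does not with normexp background correction). The urine arrays lie within 2-fold of each other on each probe, furthest apart for Hexim2 probe 1 (-0.76) and Ell2 probe 1 (0.73).

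Hexim2, which can replace Hexim1 in the 7SK particle, was read by probes that differed. Probe 2 gave 3027 units with PBS, 8226 in MRL/MpJ urine and 5818 in lpr urine, differences of 2.30 and 2.0. Probe 1 gave 38.1, 47.9 and 24.8 units. Its differences of 1.19 and 0.43 became 0.29 and -0.56 under spike-in scaling, so that it has no settled direction. Probe 1 was the lowest member probe with lpr urine against MRL/MpJ urine, at -0.76.

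Probe 2 of Hexim2 carries the CA repeat shown above, and so do other probes on the array. Besides it, 41 probes hold a run of at least 8 CA units, and 40 of them were measured on all arrays. With MRL/MpJ urine 39 of the 40 were at least 2-fold higher than with PBS (97.5%, against 15.5% of all measured probes), with a median difference of 2.40 and quartiles of 2.29 and 2.57. With lpr urine 39 of 40 were higher as well, with a median of 2.15 and quartiles of 1.98 and 2.35. Probe 2 of Hexim2, at 2.30 and 2.0, lay within both ranges. The 71 probes with a run of TG, the complement, went the other way, with medians of -0.59 and -0.40, and 0 of them were higher. The value of probe 2 thus cannot be told apart from that of unrelated probes with the same repeat, and no change of Hexim2 is read from it.

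**Figure D2:**
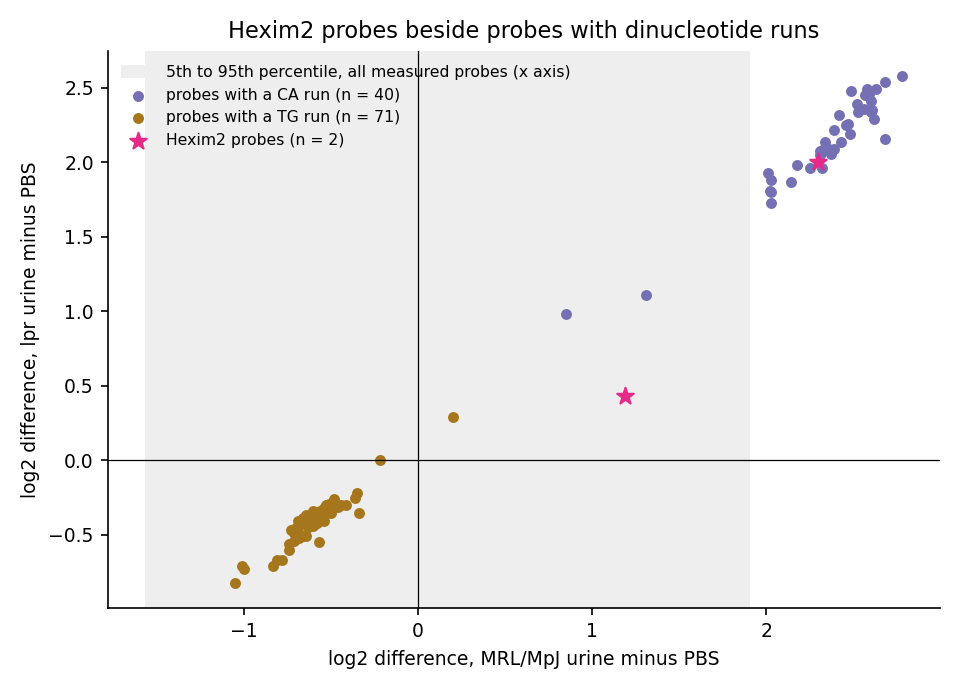
Log2 difference from PBS with MRL/MpJ urine (x axis) and lpr urine (y axis) of 40 probes with a CA run, 71 with a TG run and the 2 Hexim2 probes (stars), 75th percentile scaling; both axes share the PBS array. The upper Hexim2 star, at 2.30 and 2.0, sits inside the cloud of CA probes, and the lower one, at 1.19 and 0.43, outside it; the grey band is the 5th to 95th percentile of all measured probes on the x axis, -1.56 to 1.90.

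Larp7, whose protein shields the end of 7SK, read 789 units with PBS, 404 in MRL/MpJ urine and 361 in lpr urine. Relative to the array that is a difference of -0.10 and -0.07, near the median of all measured probes (0.06 and 0.08). Under spike-in scaling it was -1.01 and -1.07, and no direction is read for it.

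The 7SK RNA itself was measured by 1 probe, under the name Rn7sk. It read 7291 units with PBS, 24021 in MRL/MpJ urine and 25013 in lpr urine, a difference of 2.58 (5.99-fold) and 2.84 (7.14-fold). Both urine arrays were high, and the differences remained positive under spike-in scaling, at 1.68 and 1.84. 7SK is made by RNA polymerase III and has no poly(A) tail, many near-identical copies of it lie in the genome, and the labels do not state how the labelling reaction was primed, so the share of the signal that is intact 7SK was not tested. Mepce, the gene of its capping enzyme, differed by -0.10 and 0.14 on its brighter probe (3226, 1653 and 1704 units).

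The kinase gene Cdk9 stayed within 2-fold on both of its probes. Probe 1 read 2693 units with PBS, 2423 in MRL/MpJ urine and 2077 in lpr urine, differences of 0.71 and 0.68. Probe 2 read 209, 112 and 91.4 units, differences of -0.04 and -0.14. Under spike-in scaling probe 1 gave -0.19 and -0.31, and probe 2 gave -0.95 and -1.13, and no direction is read for Cdk9.

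The cyclin genes of P-TEFb differed from each other. Ccnt1, the gene of cyclin T1, stayed within 2-fold on the 3 probes measured on all arrays. Probe 1 read 1253 units with PBS, 664 in MRL/MpJ urine and 702 in lpr urine, differences of -0.05 and 0.22. Probe 2 read 954, 715 and 745 units (0.45 and 0.70), and probe 3 read 643, 413 and 424 (0.22 and 0.46). Under spike-in scaling all 3 were below PBS with both urines, by -0.30 to -0.96. Probe 4 was not well above background with PBS (3.00 units) and read 5.59 and 6.4 units with the urines, close to background. Against the lowest signal called well above background with PBS it was at least 2.27-fold and 2.98-fold higher under 75th percentile scaling. Under spike-in scaling these bounds were 1.21-fold and 1.49-fold. With normexp background correction its differences were 0.65 and 0.79, less than 2-fold, so the size of its difference is not settled. Its sequence starts at base -222 from the RefSeq start site of Ccnt1 on GRCm38, so it lies before that start site.

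Ccnt2, the gene of cyclin T2, was lower with urine on all 5 probes, except that the dim probe 3 was 0.11 and 0.12 above PBS with normexp background correction. Probe 1, at chromosome 1, 129692057 to 129692116 (mm9), read 1217 units with PBS, 109 in MRL/MpJ urine and 90.5 in lpr urine. That is 6.12-fold and 6.46-fold lower (-2.61 and -2.69). Probe 5, the furthest downstream (129704305 to 129704364), read 381, 47.7 and 36.3 units, 4.39-fold and 5.04-fold lower (-2.13 and -2.33).
Between them the differences were smaller. Probe 4 read 73.9, 17.2 and 13.3 units (-1.24 and -1.41). Probe 2 read 105, 37.8 and 32.6 units (-0.61 and -0.63), and probe 3 read 46.5, 17.5 and 11.8 units (-0.55 and -0.93). On each probe both urine arrays read below PBS, and 3 of the 5 passed 2-fold with each urine. Probes 2 and 3 are annotated to the RefSeq transcript of the gene, and the 3 that passed 2-fold to Ensembl transcripts, in the array's own annotation. Under spike-in scaling all 5 passed 2-fold, from -1.46 to -3.52 with MRL/MpJ urine and from -1.62 to -3.69 with lpr urine. With normexp background correction, which shrinks dim signals, probes 2 and 4 differed by -0.24 and -0.27 with MRL/MpJ urine, while probes 1 and 5 were at -2.38 and -1.49.

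Brd2 encodes a BET protein, and its 3 probes ranked very differently. Probe 1, at chromosome 17, 34248982 to 34249041, read 4181 units with PBS, 5235 in MRL/MpJ urine and 5174 in lpr urine. Its differences of 1.19 (2.28-fold) and 1.36 (2.57-fold) were 0.28 and 0.37 under spike-in scaling, so the 2-fold call depends on the scale. Probe 2 (34255967 to 34256026), nearer the 5′ end of this reverse-strand gene, read 60.3, 458 and 441 units.
That is 13.8-fold and 15.2-fold higher (3.79 and 3.93), and 7.38-fold and 7.63-fold under spike-in scaling. Probe 3, furthest upstream at 34256524 to 34256583, read 14.0, 8.76 and 8.97 units and stayed within 2-fold (0.19 and 0.42). The 11-base inverted repeat of probe 2 is rare on the array. Of 25 other probes with arms of at least 11 bases, 9 were measured with both PBS and MRL/MpJ urine, and 2 of them (22.2%) were at least 2-fold higher, near the 15.5% of all measured probes. With lpr urine it was 2 of 10 (20%, against 16.9%), and nothing about Brd2 is read from these counts. RefSeq lists 3 start sites for Brd2 in the promoter table used here, and none of its windows holds a Brd2 probe whole.

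Ell2, an elongation factor gene of the super elongation complex, was the member that differed most between the urines in the direction of lpr urine. Probe 1 read 136 units with PBS, 127 in MRL/MpJ urine and 184 in lpr urine. Probe 2 read 94.5, 78.4 and 110 units. Against PBS the differences were 0.76 and 0.59 with MRL/MpJ urine and 1.49 and 1.27 with lpr urine, so both probes passed 2-fold with lpr urine alone. Under spike-in scaling they were -0.14 and -0.31 with MRL/MpJ urine, and 0.50 and 0.28 with lpr urine. Lpr urine against MRL/MpJ urine gave 0.73 and 0.68, above 99% and 98.6% of 30606 measured probes, and 0.64 and 0.59 under spike-in scaling. These values exceed the 0.122 SD of repeated spots at such signals, but no replicate array shows how far 2 wells differ.

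Aff4, the scaffold gene of the same complex, read 184 units with PBS, 121 in MRL/MpJ urine and 124 in lpr urine. It stayed within 2-fold at 0.25 and 0.48, and lay below PBS, at -0.65 and -0.51, under spike-in scaling.

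**Figure D3:**
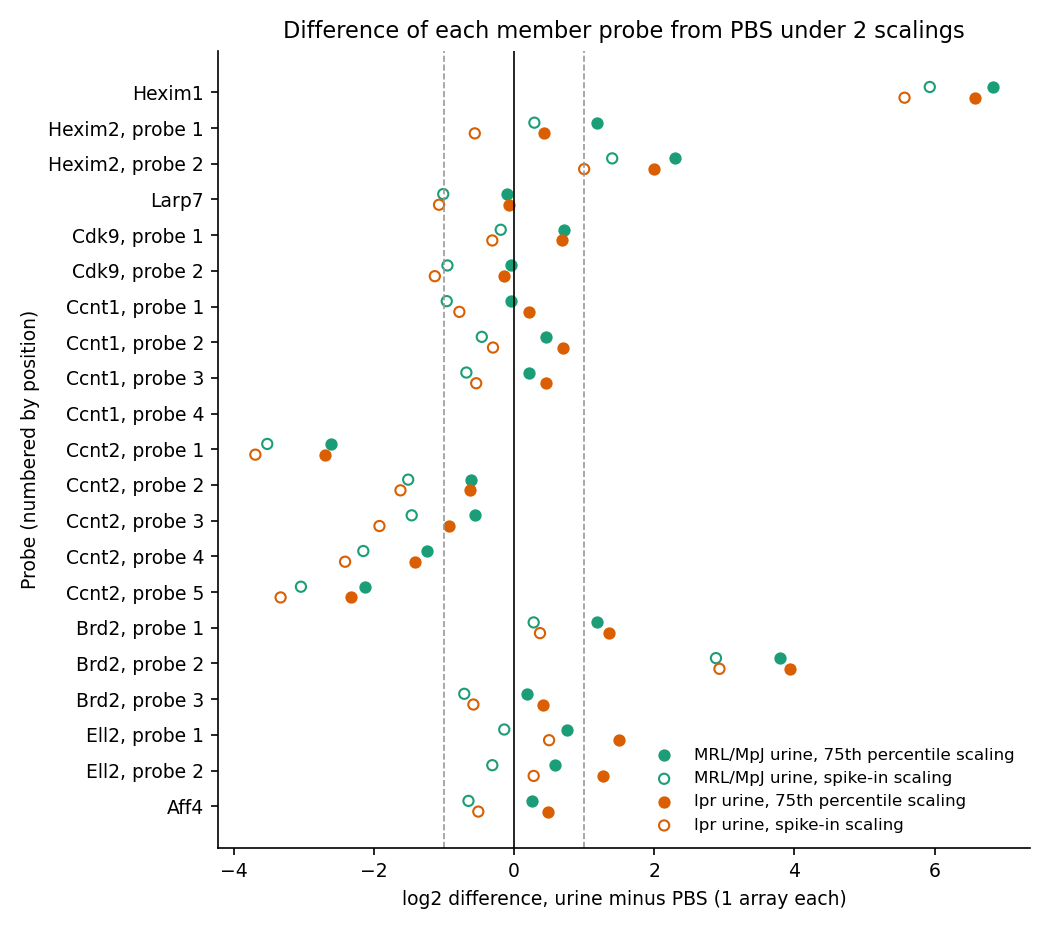
Log2 difference from PBS (x axis) of each member probe measured with PBS (y axis) with either urine, filled under 75th percentile scaling and open under spike-in scaling; dashed lines mark 2-fold and both urines share the PBS array. Hexim1, Brd2 probe 2 and Hexim2 probe 2, the one with the CA repeat, stay at or above 2-fold higher under both scalings. Ccnt2 probes 1, 4 and 5 stay past 2-fold lower under both. Cdk9, Ccnt1, Aff4 and the other Brd2 probes cross 0 or a 2-fold line with at least 1 urine.

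Counted over the members, 5 of 20 probes measured on both arrays were higher with MRL/MpJ urine than with PBS and 3 were lower, where 15.5% and 12.4% of all measured probes were. The higher ones were the Hexim1 probe, both Hexim2 probes and Brd2 probes 1 and 2, and the lower ones were Ccnt2 probes. The median over the member probes was 0.24. With lpr urine 6 of 20 were higher and 3 lower, against 16.9% and 13.2% of all measured probes, with a median of 0.44. The added ones were both Ell2 probes, and Hexim2 probe 1 dropped out. Probes of 1 gene share a source, and Hexim1 was chosen on this contrast, so nothing is read from these shares.

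Between the urines no member probe was 2-fold apart. Of 21 probes 0 were higher and 0 lower with lpr urine, where 0.294% and 0.0719% of all measured probes were. The differences ran from -0.76 (Hexim2 probe 1) to 0.73 (Ell2 probe 1), with a median of 0.03. Hexim1 was 1.20-fold lower with lpr than with MRL/MpJ urine (-0.26), below all but 9.17% of measured probes. All 4 Ccnt1 probes lay slightly higher with lpr urine (0.23 to 0.39) and all 5 Ccnt2 probes slightly lower (-0.02 to -0.38), but with normexp background correction Ccnt2 probes 2, 3 and 4 lay on the other side, at 0.04, 0.01 and 0.07. Both comparisons with PBS share the PBS array, so their likeness is in part built in.

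How many genes of the wider elongation machinery were 2-fold from PBS depends on the scaling. Of 37 further genes listed for it, each read from 1 probe, 36 were measured. With MRL/MpJ urine 4 were higher and 3 lower (median -0.15), where 16.9% and 11.1% of all measured genes were (median 0.13). With lpr urine 5 were higher and 5 lower (median -0.16), where 18.5% and 12% were (median 0.15). These counts depend on the probe chosen. Aff3 and Ctr9, higher with each urine, were so on the chosen probe only, as was Cdc73 with lpr urine. Conversely, Jmjd6, Mllt3 and Cdk13 were within 2-fold on the chosen probe but higher on another, as was Aff1 in lpr urine. When probes were averaged per gene, the 4 and 5 higher genes became 3 and 4. Under spike-in scaling 2 were higher and 22 lower with MRL/MpJ urine, and 1 higher and 21 lower with lpr urine. Most of the list then passed 2-fold, but this scaling lowers every difference from PBS. Larp7, at -1.01 and -1.07 under it, lay above 43.1% and 44% of all measured probes, so these were past 2-fold lower too. The share over all genes was not counted under it, and nothing about the list is read from these counts. None was 2-fold apart between the urines, where 0.34% of genes were higher with lpr urine and 0.06% lower.

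Besides Rn7sk, the largest differences were those of Aff3, Wdr61 and Ell3. Ell3, a paralog of Ell2 that is abundant in B cells, read 332 units with PBS, 598 in MRL/MpJ urine and 486 in lpr urine (1.71 and 1.61), and its other probe gave 1.73 with each urine. Under spike-in scaling Ell3 was 0.80 and 0.61. Wdr61, a subunit of the PAF1 elongation complex, read 1728, 263 and 232 units (-1.86 and -1.84), with -1.53 and -1.63 on its next brightest probe. Its remaining probe, a dim one (13.0, 5.52 and 4.8 units), stayed within 2-fold, at -0.38 with each urine. Aff3, a lymphoid paralog of Aff4, was higher on the probe chosen for it, at 1.97 and 1.77 (164, 355 and 269 units). On its brightest PBS probe Aff3 was lower, at -1.46 and -1.67 (590, 118 and 89.0 units), so it has no single direction. Ctr9 was also higher on its chosen probe, at 1.52 and 1.46 (198, 312 and 263 units). Its brightest PBS probe gave -0.33 and -0.28 (223, 97.7 and 88.1 units). The remaining Ctr9 probe gave -0.53 and -0.88, so no direction is read for Ctr9.

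Of 6 genes of pausing factors 1 was lower and 0 were higher with each urine. Of all measured genes 11.1% and 12% were lower with MRL/MpJ and lpr urine, and 16.9% and 18.5% higher. Under spike-in scaling, which lowers every difference from PBS, 5 of the 6 were lower with each urine. The share over all genes was not counted under that scaling, and nothing is read from these counts. Supt5, the large subunit of the pausing factor DSIF, differed by 0.51 and 0.75 (3570, 2802 and 2886 units), and by -0.39 and -0.25 under spike-in scaling. Of the 4 genes of the negative elongation factor NELF, Nelfa was lower (385, 94.2 and 62.2 units; -1.17 and -1.57), and Nelfb, Nelfcd and Nelfe stayed within 2-fold but passed it under spike-in scaling, from -1.34 to -1.61. Ell, a further paralog of Ell2, differed by -1.15 and -1.10. Jmjd6, which has a part in pause release and is named here after its values were seen, spanned -0.14 to 3.20 with MRL/MpJ urine over its 4 probes, its brightest probe being the lowest.

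**Figure D4:**
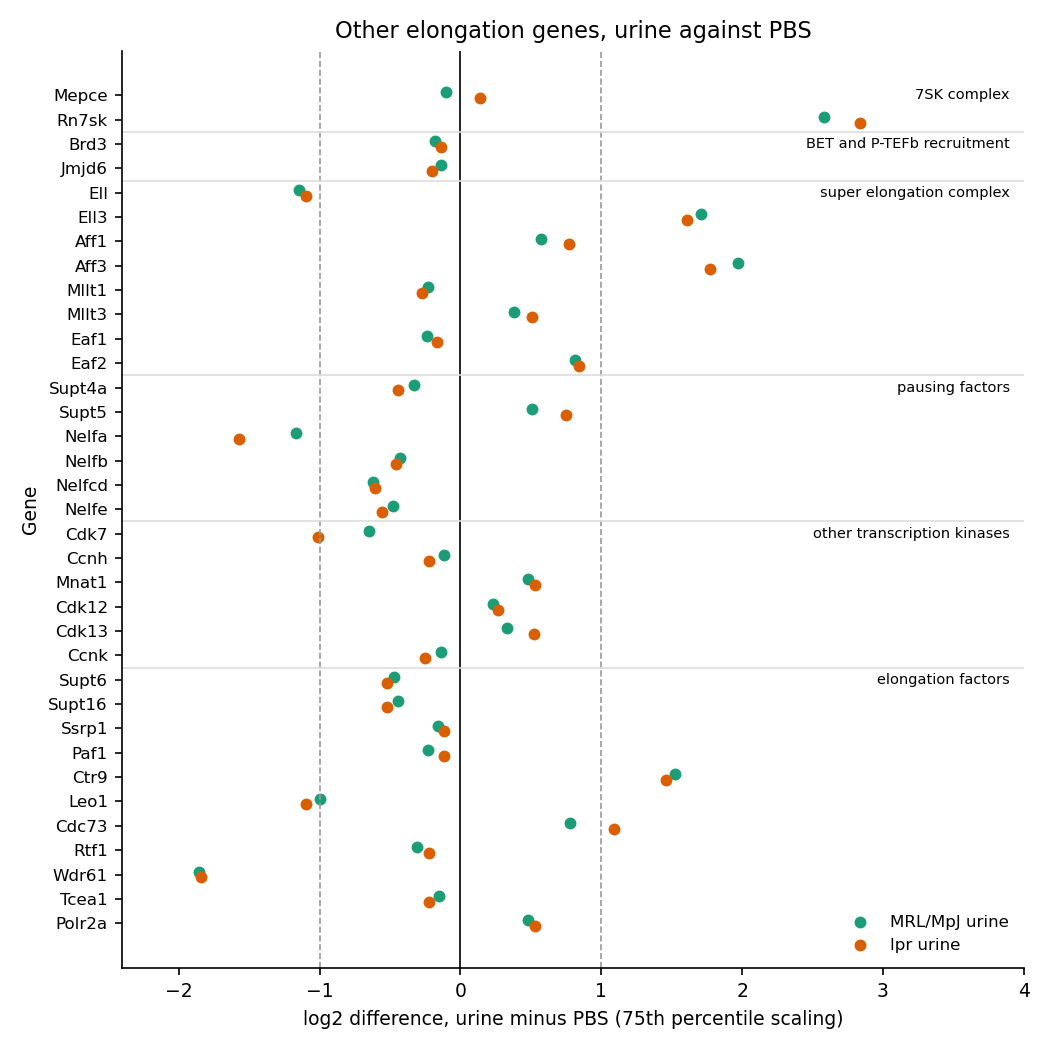
Log2 difference from PBS (x axis, 75th percentile scaling) of the measured elongation genes that are reported here (y axis, grouped by role) with MRL/MpJ and lpr urine, 1 array each; dashed lines mark 2-fold. Rn7sk stands highest at 2.58 and 2.84 and Wdr61 lowest at -1.86 and -1.84, and most genes lie between the dashed lines, which they do not under spike-in scaling.

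Hexim1 and Hexim2 follow each other in the RefSeq gene table, and the array reads both strands around them. Within 100 kb of the Hexim1 probe there were 22 probes, and no other came near its difference. Acbd4, the gene before Hexim1, differed by -0.04 and -0.21 at its nearest probe, 7.4 kb upstream. An unnamed forward-strand locus 13.3 kb downstream differed by 0.33 and 0.29 (145, 100 and 85.5 units). On the reverse strand C130045F17Rik, 5.7 kb downstream, was higher (565, 868 and 555 units; 1.48 and 1.03), with 0.58 and 0.04 under spike-in scaling. An unnamed reverse-strand locus at 11.1 kb was lower (94.7, 9.42 and 5.95 units; -2.47 and -2.94).

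**Figure D5:**
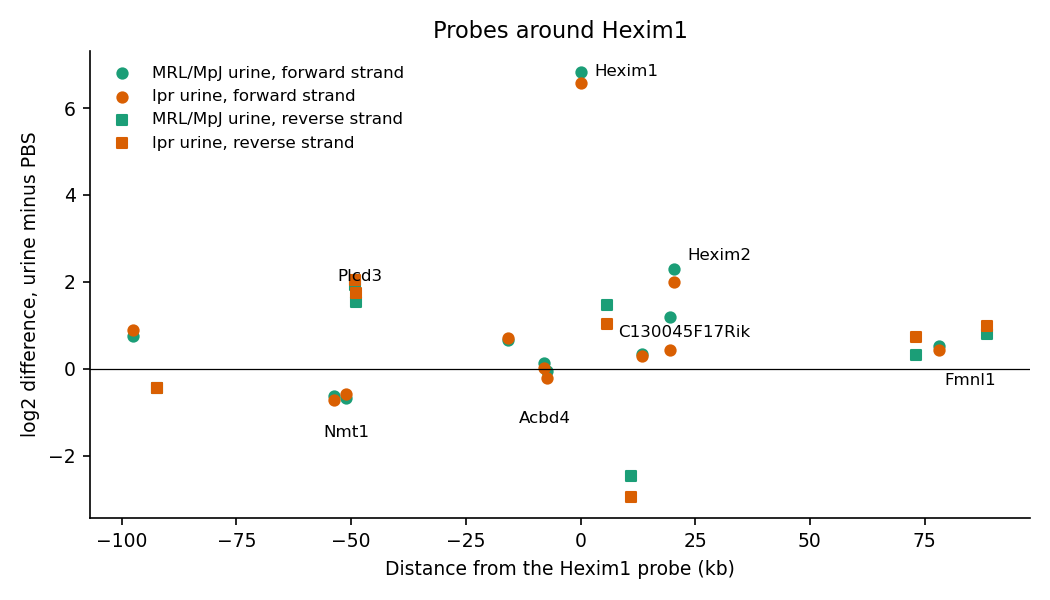
Log2 difference from PBS (y axis, 75th percentile scaling) of the probes around Hexim1 that were measured on all 3 arrays, by distance from the Hexim1 probe (x axis, kb) and strand (circles forward, squares reverse). Hexim1 stands alone at 6.83 and 6.57, and its neighbours lie between -2.94 and 2.30.

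The promoter of Hexim1 is shown because the gene had the largest difference of the members, with that of Ccnt2, the member with the largest difference below PBS. Both are the 250 bases before the start site, from RefSeq on GRCm38, forward strand, with capitals for CCAAT boxes (CCAAT, either strand) and GC boxes (GGGCGG, either strand).
Hexim1 (chr11:103116075-103116324): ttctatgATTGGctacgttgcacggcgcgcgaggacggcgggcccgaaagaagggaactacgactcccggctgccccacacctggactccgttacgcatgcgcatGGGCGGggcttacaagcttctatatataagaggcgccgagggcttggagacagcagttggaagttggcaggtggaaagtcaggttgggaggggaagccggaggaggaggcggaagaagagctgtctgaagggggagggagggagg
Ccnt2 (chr1:127773914-127774163): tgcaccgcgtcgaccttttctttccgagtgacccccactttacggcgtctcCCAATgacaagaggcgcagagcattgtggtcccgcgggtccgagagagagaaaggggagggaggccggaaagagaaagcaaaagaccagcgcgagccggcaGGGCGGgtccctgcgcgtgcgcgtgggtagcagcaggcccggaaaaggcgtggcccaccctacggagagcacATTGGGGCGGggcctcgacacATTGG
Hexim1 holds 1 CCAAT box and 1 GC box, and Ccnt2 holds 3 and 2, one of each sharing a base. Of all 32851 promoter windows 33.8% hold a CCAAT box and 32.7% a GC box. A TATA box (TATAAA, in 12.4% of windows), a heat shock element (GAANNTTC, 6.69%), the core of the cAMP response element (TGACG, 17.8%), an AP-1 site (TGANTCA, 6.75%), an E-box (CACGTG, 6.02%) and the serum response element (1.47%) had no match in either, on either strand. The core of the cAMP response element was matched in 5 of the 10 windows of the 8 members in the table, those of Aff4, Ell2, Larp7, Ccnt1 and 1 of the 3 of Brd2. The TATA box was searched as TATAAA alone, so the stretch tatataag in the Hexim1 window was not counted as one. These are matches of letters and not sites shown to be bound.

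The genes most like Hexim1 were found among 12741 named genes that were measured and unsaturated on all arrays, by the distance between their 2 differences from PBS and its own. The 6 closest were Rbm44 (distance 0.20), Orc1 (0.23), Oxt (0.43), Flt1 (0.58), Cracr2b (0.76) and Phlda1 (0.81). With PBS the first 5 read 4.81 to 16.2 units, close to background, and each has other probes with smaller differences. Phlda1, a gene induced early by growth and stress signals, was alone among the 6 in a bright range like that of Hexim1, with 229 units with PBS, 9211 in MRL/MpJ urine and 7459 in lpr urine (6.19 and 6.08). Likeness over 2 differences that share the PBS array says little of shared behaviour.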

How the data were processed

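Gene expression was measured on 3 single-colour Agilent arrays of design 074809, 1 per condition, all on 1 slide and from 1 scan time per the file headers. Per the file headers, the authors' values are intensity units from Feature Extraction 12.0.3.1, the version that the submitters' processing notes also name: a processed signal, background-subtracted and detrended within the array and not normalised between arrays, and unprocessed mean and background signals. Flags for well above background, saturation and outliers are other values deposited with them.

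Outlier spots were dropped and spots of a probe averaged, which left 56599 of 56605 probes. Log2 signals were scaled by the 75th percentile (Python 3.11.15, pandas 2.3.3), and normexp (limma 3.58.1, offset 50) was an alternative. Listed genes were read from the probe well above background on most arrays, then the brightest. The pipeline was tested on simulated arrays. Named genes were all members, the 4 largest differences of the elongation list per urine, Mepce and Supt5, and the 6 genes closest to Hexim1; others are named where they fill a count or a neighbourhood, and 1 gene of the elongation list is counted but not reported here. The comparison of probes with CA, TG or inverted repeats, and the window around Hexim1, were added after seeing the data. Members and lists were chosen with earlier results of these data known. All 9 members matched RefSeq symbols and 8 were in its promoter table. Array number, not depth, limits the precision.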

Additional observations from a re-analysis of the deposited data

Results flagged for a closer look

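For 1 probe each of Ccnt1 and Mepce the urines lay on opposite sides of PBS, by small amounts, and the difference between the urines was not tested since there is 1 array of each. Ccnt1 probe 1 differed from PBS by -0.05 with MRL/MpJ urine and by 0.22 with lpr urine. Mepce differed by -0.10 and 0.14 on its brighter probe, while its other probe lay above PBS with both urines (0.52 and 0.75), as did Ccnt1 probes 2 and 3. Under spike-in scaling both urines lay below PBS for each, at -0.96 and -0.78 for Ccnt1 probe 1 and at -1.01 and -0.86 for Mepce.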

How the results depend on the processing

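With 1 array per condition no array could be left out, and no paired analysis was possible because each group holds 1 sample. No member that was 2-fold apart reversed under normexp background correction or when probes were averaged per gene. The other scalings could not have reversed one. They lower every difference by at most 1.0 or raise it by at most 0.13, so their lack of reversals says nothing. Counts of member probes moved more. With MRL/MpJ urine the 5 higher probes were 3 under median scaling, under spike-in scaling, with normexp, at 4-fold and as means per gene, and 8 at 1.5-fold. The 3 lower ones were 6 under spike-in scaling and 1 as means per gene. With lpr urine the 6 higher probes were 3 under spike-in scaling and 2 at 4-fold, and the 3 lower ones were 5 under median scaling and at 1.5-fold, 7 under spike-in scaling and 1 as means per gene. Between the urines 2 member probes were higher and 1 lower at 1.5-fold. For the elongation list with MRL/MpJ urine, the 4 higher genes were 2 under spike-in scaling and 1 at 4-fold, and the 3 lower ones were 5 under median scaling, 22 under spike-in scaling, 6 at 1.5-fold and 0 at 4-fold. With lpr urine the 5 higher genes were 1 under spike-in scaling, 8 at 1.5-fold and 1 at 4-fold, and the 5 lower ones were 21 under spike-in scaling, 2 with the percentile over measured probes, 3 with normexp and 0 at 4-fold. Spike-in and median scaling move every difference by 1 constant, and means per gene count 9 genes in place of 21 probes. The other 79 counts lay within 1.5 times. The share over all probes or genes was counted only at 2-fold under 75th percentile scaling. Nothing about the members or the list is therefore read from the counts under other settings. Signals below 5 on the log2 scale are the least certain.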
